A study of Mus musculus with 4 samples.

Results

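Cadherins are cell-surface proteins that bind cells to one another in the presence of calcium, and protocadherins form the largest branch of the same superfamily. Classical cadherins bind mostly to their own kind on the neighbouring cell and are held to the actin skeleton through catenins; type I members include the E-, N- and P-cadherins, and type II members include cadherin 11 of mesenchymal cells. Non-clustered protocadherins are single genes spread over the genome, whereas the alpha, beta and gamma protocadherins lie in a tandem cluster from which each cell uses a few genes. Fibroblasts typically carry N-cadherin and cadherin 11 and little E-cadherin.

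The genes described here were those with a probe named Cdh followed by a number, or Pcdh with any ending, on an Agilent whole-genome mouse array. The array held 116 such probes for 67 genes, and each gene was read from its brightest probe. A gene was detected in a comparison when its probe was well above the local background on both arrays in at least 1 genotype. By that rule 31 of the 67 genes were detected in both comparisons, out of 15731 of 27745 gene names on the array, and these 31 are the members. A further 6 genes were detected in the cyclin G1 comparison only, 3 in the cyclin G2 comparison only, and 27 in neither. Of the 31 members, 26 were above background in both genotypes of both comparisons. In at least 1 comparison, each of the others entered through 1 genotype only, which was the brighter one except for Pcdhb7.

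The study asked how loss of cyclin G1 or cyclin G2, relatives of the cell-cycle cyclins, changes mouse embryonic fibroblasts (MEFs), which were prepared from embryos. A CycG1-/- culture (G1KO, an allele that lacks every protein-coding exon of Ccng1) was set against a CycG1+/+ WT culture, and a CycG2-/- culture (G2KO) against a CycG2+/+ WT culture of its own. All 4 were labelled C57BL/6J in their strain field, and all were in logarithmic growth without further treatment. Each pair was hybridised on 2 arrays with the dyes exchanged, which makes 1 replicate per genotype. No p-value can be given for the knockouts, and every SD below is that of 2 arrays of the same RNAs. Ccng1 was 102-fold lower in G1KO than in its WT (log2 ratio -6.67 ± 0.13), which matches that label. Ccng2 differed by only 0.09 ± 0.27 between the RNA labelled G2KO and its WT, so that label could not be checked from the RNA. Where the probe lies relative to the disrupted part of Ccng2 is not given in the sources used here. Ccng1 was higher in the RNA labelled G2KO than in its WT (log2 ratio 2.67 ± 0.03), and the cause was not tested. "G2KO" below means the RNA labelled G2KO. Xist was higher (log2 ratio 7.54 and 7.24) and Eif2s3y lower (-6.55 and -5.82) in the G1KO and G2KO RNAs than in their WT, so the sex of the embryos and the genotype cannot be told apart in either pair.

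Per channel, 25366 to 27757 of 43379 gene spots were above background, and none of the spots for the family was saturated. The median SD between the 2 arrays for the members was 0.08 for the G1KO pair and 0.1 for the G2KO pair (log2). All 12 fibroblast markers looked up were above background in all 4 cultures. In G1KO 3 of the 12 were at least 2-fold higher (Col5a1, Lum and Pdgfrb) and Dcn was lower (-4.05). In G2KO 6 were at least 2-fold lower, among them Pdgfra (-4.63) and Thy1 (-3.22). Of 9 markers of mesothelium, the lining of the body cavities, 7 were at least 2-fold lower in G1KO than in its WT and 2 were higher. Their summed linear level was 26800 to 32600 in G1KO and 219000 to 261000 in its WT, and 3980 to 4320 and 1980 to 2050 in G2KO and its WT. In that pair 3 of the 9 were detected, Msln higher (1.60), Bnc1 (-1.41) and Krt19 (-1.40) lower. Of 13 neural and glial markers, 2 were called higher in each knockout, Nes in both (2.34 and 3.37) and Sox2 in G2KO (5.59), and 1 was called lower in G2KO. In G1KO 1 of 16 epithelial markers was higher, Krt19 (2.90), and 4 were lower, Krt7 (-2.87), Spint1 (-2.36), Krt14 (-2.09) and Krt8 (-1.14). In G2KO 1 was higher, Krt7 (2.06), and 1 lower, Krt19 (-1.40). Epcam was above background on no array. Among endothelial, skeletal muscle and haematopoietic markers, at most 1 of each list was called in a pair. Over all genes detected in both pairs, 2.4% were at least 2-fold higher and 4% lower in G1KO, and 2.55% and 4.92% in G2KO. The part of these cell-type markers in the results that follow was not tested. In bulk RNA, fewer cells of a type and less RNA per cell cannot be told apart.

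Promoters of 11 of the 31 members and of Cdh22 were found in the RefSeq table for GRCm38.p6, each 300 bases long and reaching from upstream of the gene's start to a little past it. Of these, 5 are shown because their genes stood out below. Pcdh17 and Pcdh20 were the members most increased in G1KO, Pcdh9 was the non-clustered protocadherin most decreased in G2KO, and Cdh20 and Cdh22 were type II cadherins increased in G2KO. Capitals mark each CG, the dinucleotide that DNA methylation acts on.

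Pcdh17, chr14:84443313-84443612, plus strand: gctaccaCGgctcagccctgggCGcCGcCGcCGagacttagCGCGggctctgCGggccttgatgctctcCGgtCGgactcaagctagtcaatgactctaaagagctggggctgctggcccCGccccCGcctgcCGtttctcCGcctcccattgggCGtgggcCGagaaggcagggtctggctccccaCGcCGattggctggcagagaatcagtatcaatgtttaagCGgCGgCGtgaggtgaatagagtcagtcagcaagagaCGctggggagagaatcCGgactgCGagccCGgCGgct

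Pcdh20, chr14:88471347-88471646, minus strand: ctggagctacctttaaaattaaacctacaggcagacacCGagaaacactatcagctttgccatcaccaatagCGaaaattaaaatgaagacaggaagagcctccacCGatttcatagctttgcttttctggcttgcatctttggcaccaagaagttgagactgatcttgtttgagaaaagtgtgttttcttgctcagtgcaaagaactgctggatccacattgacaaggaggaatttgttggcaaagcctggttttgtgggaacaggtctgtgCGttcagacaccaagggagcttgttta

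Pcdh9, chr14:93890620-93890919, minus strand: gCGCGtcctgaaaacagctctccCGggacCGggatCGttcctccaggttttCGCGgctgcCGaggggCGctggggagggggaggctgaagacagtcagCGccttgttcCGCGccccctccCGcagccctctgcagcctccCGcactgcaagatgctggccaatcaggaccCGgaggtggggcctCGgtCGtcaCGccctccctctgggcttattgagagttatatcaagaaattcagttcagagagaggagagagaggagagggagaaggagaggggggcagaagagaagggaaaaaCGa

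Cdh20, chr1:104768270-104768569, plus strand: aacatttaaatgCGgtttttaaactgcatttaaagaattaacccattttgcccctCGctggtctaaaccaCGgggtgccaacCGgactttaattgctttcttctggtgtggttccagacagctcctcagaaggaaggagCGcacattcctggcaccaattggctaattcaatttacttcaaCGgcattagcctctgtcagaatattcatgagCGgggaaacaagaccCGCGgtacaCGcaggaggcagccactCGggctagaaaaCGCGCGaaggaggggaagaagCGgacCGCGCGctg

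Cdh22, chr2:165234688-165234987, minus strand: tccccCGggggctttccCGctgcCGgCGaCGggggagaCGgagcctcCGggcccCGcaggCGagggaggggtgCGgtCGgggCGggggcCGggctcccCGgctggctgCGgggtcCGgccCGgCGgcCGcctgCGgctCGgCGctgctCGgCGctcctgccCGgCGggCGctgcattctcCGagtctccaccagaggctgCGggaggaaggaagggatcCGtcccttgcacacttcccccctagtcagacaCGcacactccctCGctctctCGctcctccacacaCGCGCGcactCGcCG

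The promoters of Pcdh17 and Pcdh20 differed in composition although both genes were called higher in G1KO. That of Pcdh17 held 26 CG, a number reached by 16.9% of the 32851 promoters in the table, and that of Pcdh20 held 4, reached by 68.6%. Pcdh9 held 19, Cdh20 held 18 and Cdh22 held 38, against a median of 7 over all promoters. The E-box CANNTG, the letters read by SNAI, ZEB and TWIST factors, is the same on both strands and occurs in 72.3% of all promoters. It was in 5 of the 12 promoters searched here, those of Cdh10, Cdh20, Pcdh7, Pcdh19 and Pcdh21 (now Cdhr1). The other 7, those of Pcdh9, Pcdh10, Pcdh17, Pcdh18, Pcdh20, Cdh22 and Cdh26, lacked it. This is a statement about these letters in this window only.

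A member was called when the knockout differed from its WT by at least 2-fold (1 on the log2 scale) in the same direction on each array. In G1KO, 4 of the 31 members were called higher and 1 lower; over all 15731 genes read in the same way, 2.4% were called higher and 4% lower. In G2KO, 3 members were called higher and 8 lower, against 2.55% and 4.92% of all genes. No member was called in both pairs, 5 were called in G1KO only, 11 in G2KO only and 15 in neither. The overlap of calls among all genes was not counted, so that of the members cannot be set against it. With an offset of 0 in place of 50 in the background correction, Pcdh17, Pcdh20 and Pcdh21 were called in both pairs, and with the ratio that the scanner's software gave Cdh26 was as well; 1 of these genes then had the same direction in both. The median log2 ratio of the members was 0.26 in G1KO and -0.52 in G2KO, and that of all genes 0.00 and -0.01. Among the 26 members above background in both genotypes throughout, 3 were called in G1KO and 10 in G2KO. The share of all genes called under that stricter filter was not counted. These counts compare single cultures.

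**Figure D1:**
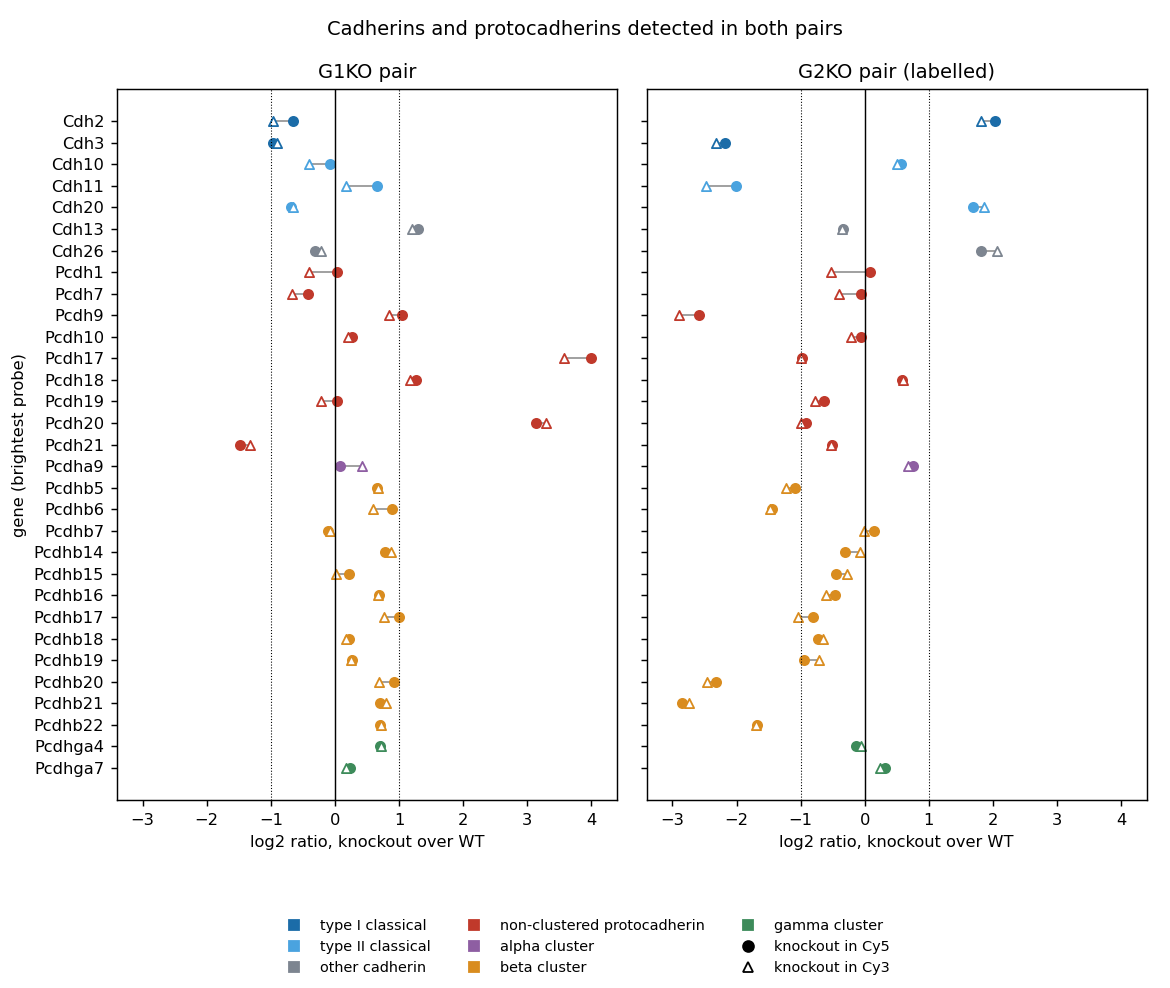
Log2 ratio of knockout over WT for the 31 members, with 1 point per array (filled circle, knockout in Cy5; open triangle, knockout in Cy3) and 1 row per gene, coloured by subfamily; dotted lines mark a 2-fold difference. Pcdh17 and Pcdh20 lie farthest to the right in the G1KO pair, and Pcdhb21, Pcdh9 and Pcdhb20 farthest to the left in the G2KO pair.

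Among the classical cadherins, 2 of 2 members of type I and 2 of 3 of type II were called in G2KO and none in G1KO. Over all genes, 7.47% were called in G2KO and 6.41% in G1KO. Cdh2 encodes N-cadherin, the usual type I cadherin of fibroblasts and neural tissue. Its level, as normalised log2 intensity, was 12.16 on both arrays in G2KO and 10.13 and 10.35 in its WT. The log2 ratios were 2.03 and 1.81, a 3.78-fold increase. In the G1KO pair the order was the opposite, with 10.75 and 10.62 in the knockout and 11.40 and 11.58 in the WT, a log2 ratio of -0.80 ± 0.22 that was not called. The 2 dimmer probes of Cdh2 were not called in G2KO, and the lower of them gave 0.31.

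Cdh11, the type II cadherin of mesenchymal and bone-forming cells, moved the other way. It was among the brightest members in the G2KO WT, at 13.15 and 13.34, and stood at 11.14 and 10.87 in G2KO. The log2 ratios were -2.01 and -2.48, which is 4.73-fold lower. Both cultures of the G1KO pair were close to the brighter value, with 13.19 and 13.11 in the knockout and 12.53 and 12.93 in the WT. Of its 3 probes, 2 were called lower in G2KO and the remaining probe gave -0.66, so the size of the difference depends on the probe.

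Cdh3 encodes P-cadherin, a type I cadherin best known from epithelia. It was lower in both knockouts, with log2 ratios of -2.18 and -2.32 in G2KO, where it was called, and of -0.96 and -0.90 in G1KO, just inside 2-fold. Its levels differed in every culture: 11.51 on both arrays in the G1KO WT, 10.56 and 10.61 in G1KO, 8.99 and 9.34 in the G2KO WT and 6.81 and 7.02 in G2KO. No neighbours in that order overlapped between arrays. Cdh1, which encodes E-cadherin, was detected in the G1KO pair only, with log2 ratios of -0.39 and -0.26, and was not above background on any array in G2KO.

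Cdh20 and Cdh22, type II cadherins of the nervous system, were both called higher in G2KO. Cdh20 read 10.98 and 11.03 in G2KO and 9.29 and 9.15 in its WT, a log2 ratio of 1.78 ± 0.13. Cdh22 is no member, because it was not above background on any array of the G1KO pair. In G2KO it gave log2 ratios of 1.90 and 2.02 and was above background in both genotypes. Cdh10, another type II gene, differed by 0.57 and 0.51 in G2KO and by -0.08 and -0.40 in G1KO, and was not called.

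Cdh26, a cadherin described in epithelium, was bright enough to measure mainly in G2KO. It read 8.46 and 8.29 there, against 6.63 and 6.23 in its WT, 6.35 on both arrays in G1KO and 6.66 and 6.56 in the WT of that pair. The 3 lower cultures overlapped in part, and G2KO stood above all of them. The log2 ratios in G2KO were 1.82 and 2.07, and the mean ran from 1.61 without background correction to 3.82 with the scanner's ratio. Cdh13 encodes T-cadherin, which is anchored in the membrane by a lipid and binds adiponectin. It was the only cadherin outside the protocadherins to be called in G1KO, with log2 ratios of 1.30 and 1.20 (2.38-fold higher), and differed by -0.35 ± 0.01 in G2KO.

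Non-clustered protocadherins gave the largest differences in G1KO, where 3 of 9 were called higher and 1 lower, against 2.4% and 4% of all genes. Pcdh17, a delta-2 protocadherin of developing brain, read 12.86 and 12.69 in G1KO and 8.87 and 9.11 in its WT. The log2 ratio was 3.78 ± 0.29, a 13.8-fold increase. Of its 3 probes, 2 were called, and the third, the dimmest, gave 0.66. In the G2KO pair the same gene was low in both cultures, with 6.4 and 6.72 in the knockout, 7.38 and 7.71 in the WT and log2 ratios of -0.98 and -0.99, just short of a call (a mean of -2.33 by the scanner's ratio).

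Pcdh20 was also highest in G1KO. It read 9.47 and 9.25 in G1KO, against 6.33 and 5.96 in the WT, where it was above background on 1 of 2 arrays; the log2 ratio was 3.22 ± 0.11. Its mean ran from 2.74 without background correction to 6.07 with the scanner's ratio. In the G2KO pair it was above background in the WT alone, so that it was at least 1.95-fold lower in G2KO. Pcdh18, a delta-2 protocadherin, read 12.7 and 12.63 in G1KO and 11.43 and 11.47 in its WT. It was called higher there, with log2 ratios of 1.27 and 1.17, while in G2KO it was higher by 0.59 and 0.60. Pcdh21 was the member called lower in G1KO. Its current name is Cdhr1, a photoreceptor cadherin, and it gave log2 ratios of -1.48 and -1.32 at low levels, 6.18 and 6.53 in G1KO and 7.65 and 7.85 in its WT. Its mean ran from -2.96 with the scanner's ratio to -1.14 without background correction.

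Pcdh9, a delta-1 protocadherin, was called lower in G2KO, at 9.39 and 9.15 against 11.98 and 12.06 in its WT. The log2 ratios of -2.59 and -2.90 amount to a 6.70-fold decrease. Of its 5 probes, 4 were called lower in that pair. In G1KO the brightest probe gave 1.05 and 0.84 and the 5 probes ran from 0.23 to 1.09, with 1 of them called higher. Pcdh9 thus lay on opposite sides of its WT in the 2 pairs on all 4 arrays.

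Pcdh17, Pcdh20 and Pcdh9 lie in that order on mouse chromosome 14, within a stretch from base 83342078 to 92770090 of the build used for the array (mm8). The stretch held 19 other genes or cDNA clones on the array, of which 10 were detected with G1KO and its WT and 11 with G2KO and its WT. None of the 10 was called in G1KO, and their median log2 ratio was 0.40. In G2KO 4 of the 11 were called lower and none higher, and the median was -0.56. Of all genes detected in both pairs, 4.92% were called lower in G2KO. The 4 bear clone names and no gene symbol. Whether they are transcripts of Pcdh17, Pcdh20 or Pcdh9 was not determined.

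Of the remaining non-clustered protocadherins none was called. Pcdh19, a delta-2 gene on the X chromosome, gave 0.03 and -0.21 in G1KO and -0.63 and -0.78 in G2KO. Pcdh7 gave -0.55 ± 0.17 and -0.23 ± 0.24, and Pcdh1 -0.18 ± 0.31 and -0.22 ± 0.42, with the 2 arrays of each pair on different sides of 0. Pcdh10 was near background throughout, with 0.24 and -0.14.

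**Figure D2:**
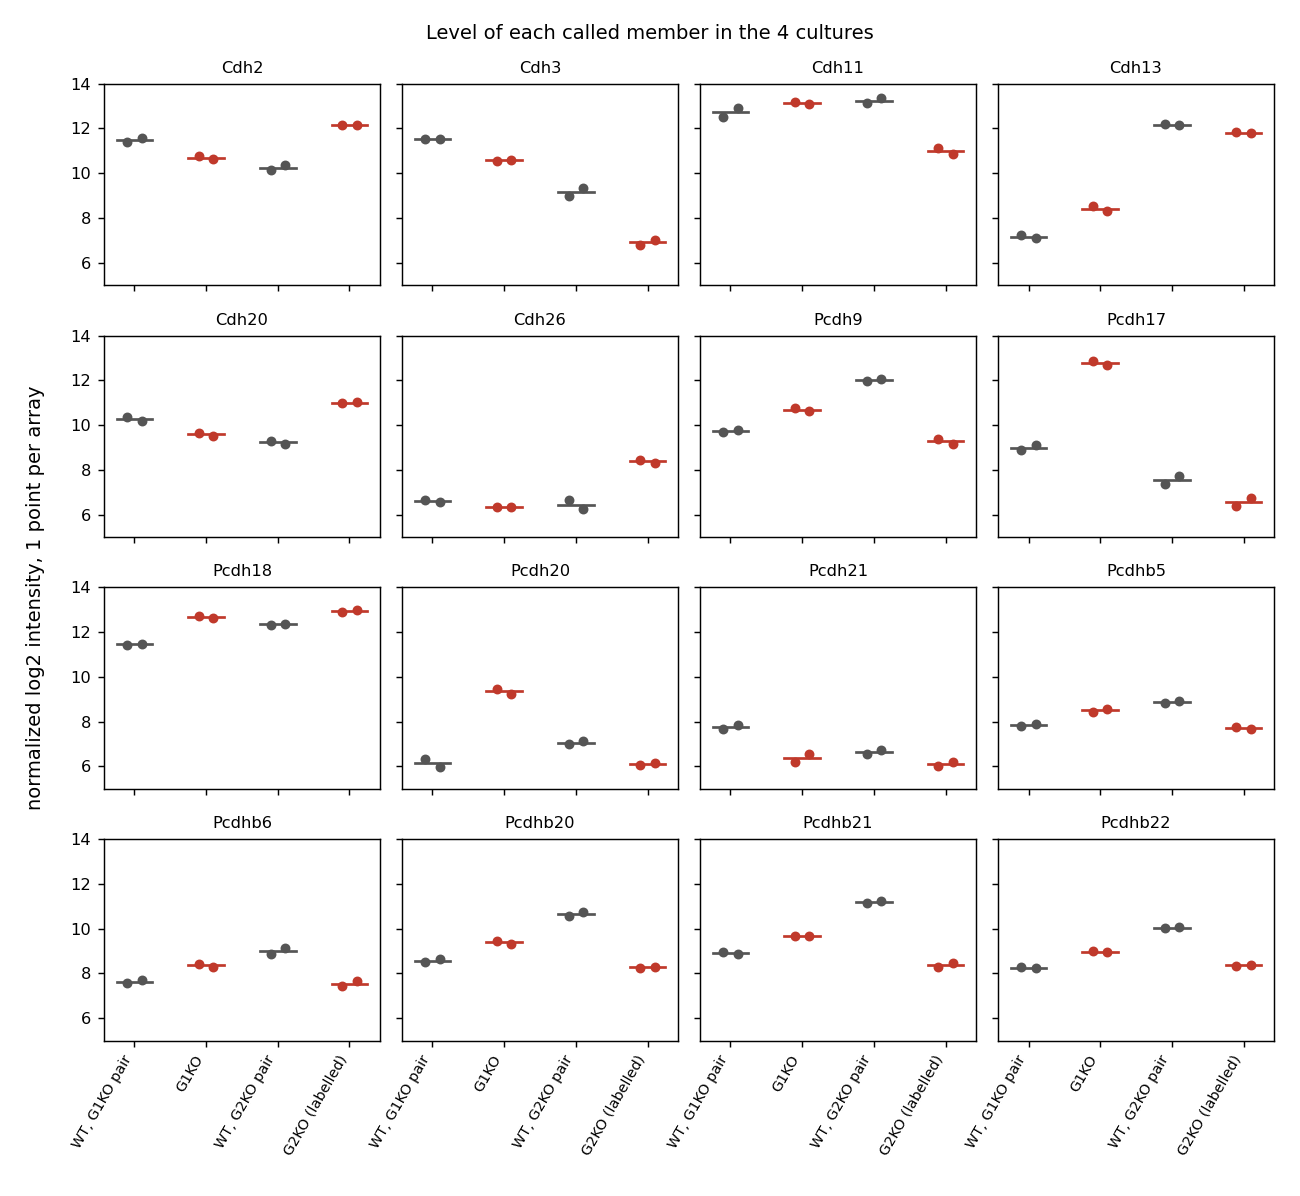
Normalised log2 intensity of the 16 called members in the 4 cultures, with 1 point per array and a bar at the mean of both (grey, WT; red, knockout). Points of a culture lie close together, and the 2 grey cultures are far apart for Cdh13, Cdh3, Pcdh9 and Pcdhb21.

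The beta protocadherins lay mostly above WT in G1KO and mostly below it in G2KO. Each beta gene is a single exon with its own promoter, unlike the alpha and gamma genes, whose variable exons are joined to shared constant exons. The array held 22 beta genes over 253.9 kb, and 12 of them were members. In G1KO 11 of the 12 were above WT on both arrays, as were 40.7% of all genes; none was called, 4 were within 1.5-fold, and the log2 ratios ran from -0.08 to 0.88 with a median of 0.70. In G2KO 11 of the 12 were below WT on both arrays, as were 43.8% of all genes. Of the 12, 5 were called lower, against 4.92% of all genes, and 7 were not called. The values ran from -2.80 to 0.07 with a median of -0.87. Nearby beta genes are alike in sequence, so the 12 probes are not independent observations.

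The largest differences were at the far end of the beta cluster. Pcdhb21 read 8.30 and 8.48 in G2KO and 11.16 and 11.23 in its WT, and its log2 ratios were -2.85 and -2.74. Pcdhb20, its neighbour, gave -2.32 and -2.46, and Pcdhb22, the last gene, gave -1.68 and -1.69. All 3 were higher in G1KO than in its WT, with log2 ratios of 0.76 ± 0.07, 0.81 ± 0.17 and 0.72 ± 0.01, short of a call.

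Toward the start of the cluster, Pcdhb5 gave -1.09 and -1.23 in G2KO and Pcdhb6 gave -1.44 and -1.48. Both were called lower there and gave 0.66 ± 0.02 and 0.74 ± 0.21 in G1KO. Pcdhb7, the next gene, was close to background and gave 0.14 and -0.01 in G2KO. Among the 6 genes from Pcdhb14 to Pcdhb19, none was called in either pair by its brightest probe. In G1KO, Pcdhb14 (0.83 ± 0.06) was among the highest of the beta genes, Pcdhb16 gave 0.69 on average, and Pcdhb15 (0.12 ± 0.15) and Pcdhb19 (0.26 ± 0.01) were near 0. In G2KO the same 4 genes gave -0.19 (Pcdhb14), -0.53 (Pcdhb16), -0.35 (Pcdhb15) and -0.83 (Pcdhb19). A second probe of Pcdhb16 was called higher in G1KO at 1.05 on each array and gave -0.07 and -0.08 in G2KO. Pcdhb17 came nearest, with 1.0 and 0.76 in G1KO and -0.80 and -1.04 in G2KO. The probe of Pcdhb18 is listed by the array's annotation for Pcdhb17 and Pcdhb20 as well, so its values of 0.20 and -0.69 are not those of 1 gene.

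Of the beta genes outside the members, Pcdhb3 was detected in the G1KO pair only and was called higher there, at 1.1 on each array, with the WT above background on 1 of 2. Pcdhb2 was detected in the G1KO pair only, above background in the knockout alone and at least 1.15-fold higher; with G2KO it was above background on 1 of 2 arrays in each genotype. Pcdhb4 was detected in the G2KO pair only, above background in the knockout alone and at least 1.28-fold higher.

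**Figure D3:**
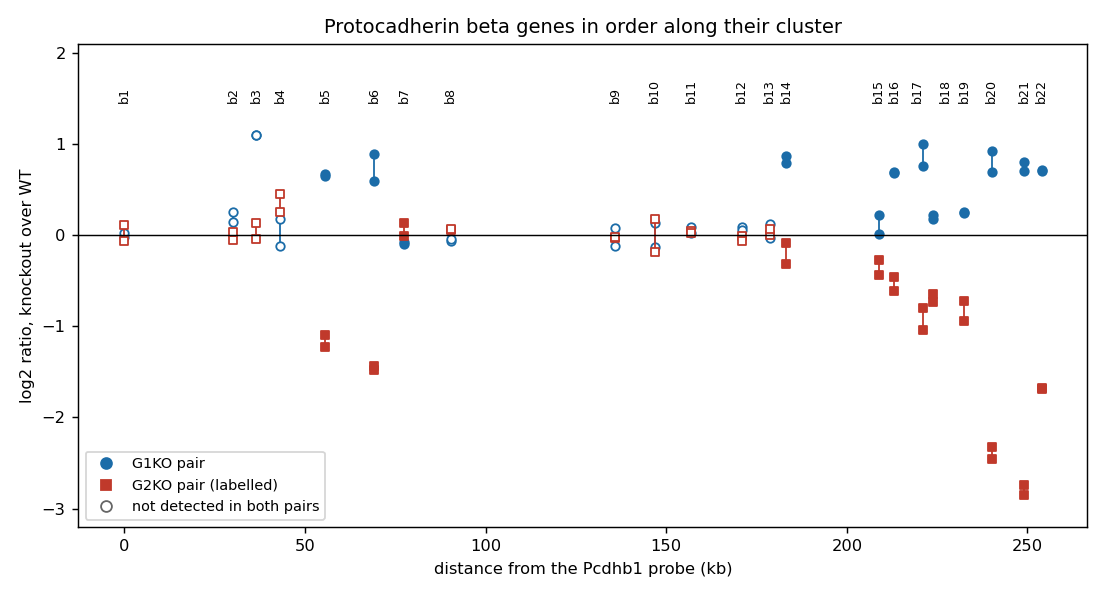
Log2 ratio of knockout over WT for the 22 beta protocadherins against the distance of their probe from that of Pcdhb1 in kb, with 2 points per gene and pair, 1 per array (blue circles, G1KO pair; red squares, G2KO pair; open, not detected in both pairs). The blue points lie mostly above 0 and the red points below, lowest at Pcdhb20, Pcdhb21 and Pcdhb22.

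No alpha or gamma protocadherin was called. The brightest probe of Pcdha9 is listed for 4 alpha transcripts and gave 0.08 and 0.43 in G1KO and 0.75 and 0.67 in G2KO. The brightest probe of Pcdhga7 is listed for 3 gamma genes and gave 0.24 and 0.17, then 0.32 and 0.24. Both thus read several genes of their cluster at once. A dimmer probe listed for Pcdhga7 alone gave -0.44 and -0.24 in G1KO, where the knockout was not above background. In G2KO that probe gave 0.65 and 0.71. A dimmer probe listed for Pcdha9 alone gave 0.04 and -0.02 in G1KO and 0.05 and -0.06 in G2KO. Pcdhga4, with a probe of its own, was higher in G1KO by 0.71 and 0.72 and gave -0.13 and -0.05 in G2KO. Of the genes detected in 1 pair, Pcdhga1 gave 0.28 and 0.02 in the G1KO pair, Pcdhgb4 -0.09 and -0.11 in the G2KO pair, and the cadherins Cdh15 and Cdh18 gave 0.36 and 0.30 and 0.01 and 0.31 in the G1KO pair.

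The 2 WT cultures differed from each other in these genes. In a comparison of their levels in the same dye, 14 of the 31 members (45.2%) were at least 2-fold apart in each dye, 8 higher and 6 lower in the WT of the G2KO pair, against 12.2% of all genes in either direction. Cdh13 was 5.00 higher on the log2 scale in the WT of the G2KO pair, against a log2 ratio of 1.25 in G1KO. Pcdh19 was higher by 2.73, Pcdhb21 by 2.29, Pcdh9 by 2.28 and Pcdhb20 by 2.08, while the differences were -2.34 for Cdh3 and -1.81 for Pcdh7. Among the 12 beta members, 5 were called higher in the WT of the G2KO pair and none lower, and these were the 5 called lower in G2KO. Both statements rest on that 1 WT culture. These levels come from different arrays and are less secure than ratios within an array.

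**Figure D4:**
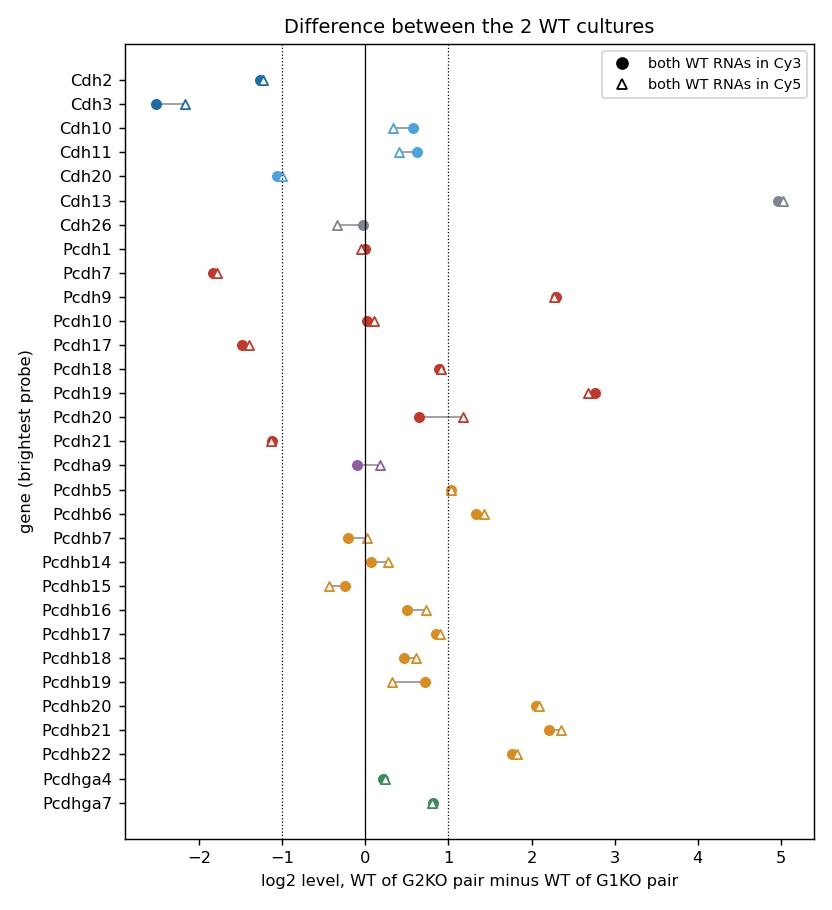
Difference in log2 level between the 2 WT cultures for the 31 members, as the WT of the G2KO pair minus the WT of the G1KO pair, with 1 point per dye (filled circle, both in Cy3; open triangle, both in Cy5); dotted lines mark 2-fold. Cdh13 lies near 5, and Cdh2, Cdh3, Cdh20, Pcdh7, Pcdh17 and Pcdh21 lie at or below -1.

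Each knockout was also set against the WT of the other pair, in the same dye. Of the 5 members called in G1KO, Pcdh17 (5.23) and Pcdh20 (2.31) were again at least 2-fold higher in each dye. Pcdh18 (0.32) and Pcdh21 (-0.27) were within 2-fold, and Cdh13 was lower (-3.75), opposite to its call. Of the 11 called in G2KO, Cdh11 (-1.73), Cdh3 (-4.60) and Cdh26 (1.76) passed in the same direction. Cdh2 (0.67), Cdh20 (0.75), Pcdh9 (-0.47) and the 5 beta genes (-0.51 to 0.10) were within 2-fold. In these comparisons 10 of the 31 members passed in either direction for each knockout, against 8.49% of all genes for G1KO and 12.7% for G2KO. Thus 5 of the 16 calls were the same against both WT cultures. The share of all called genes that repeated in this way was not counted.

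The genes that work with cadherins were read from 6 lists. Over all genes detected in both pairs, 2.4% were called higher and 4% lower in G1KO, and 2.55% and 4.92% in G2KO. The lists count genes detected in each pair, so these shares are a rough guide only. Among 13 catenins and junction linkers, which tie cadherins to actin, 12 were detected in each pair. Ctnnd2, a neural catenin of the p120 family, was called higher (1.31 ± 0.11) and Arvcf, of the same family, lower (-1.1 ± 0.12) in G1KO. Lima1 was called lower in G2KO (-1.14 ± 0.10). Ctnnb1, which encodes beta-catenin, gave 0.32 and -0.20, and Ctnna1, for alpha-catenin, 0.03 and 0.14. The list's median was -0.25 in G1KO and -0.13 in G2KO.

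Desmosomes are junctions in which other cadherins are tied to keratin, and 6 of 15 genes on that list were detected in each pair. The desmosomal cadherins themselves, the Dsg and Dsc genes, were above background on no array. Dsp, the plaque protein desmoplakin, was called lower in both knockouts (-1.14 ± 0.10 and -2.23 ± 0.12). Perp (-2.43 ± 0.10) and Pkp3 (-1.01) were called lower in G1KO. Pkp1, a plakophilin of the desmosome, was called higher in G2KO, with log2 ratios of 2.97 and 2.95.

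Of 18 large or atypical cadherins on the array, 11 were detected in each pair. Dchs1 and Fat4 are a ligand and its receptor in planar cell polarity, and both were called higher in G1KO (1.48 ± 0.08 and 1.37 ± 0.10). In G2KO Dchs1 was called lower (-1.13 ± 0.06), and Fat4 gave -0.98 and -1.11. Celsr1, another polarity cadherin, was called lower in G1KO (-1.30 ± 0.04) and gave 0.71 in G2KO. Pcdh21, already described, is on this list too. All 4 nectins were detected and none was called in either pair.

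Among the transcription factors that act on cadherin genes in the transition between epithelium and mesenchyme, Twist2 and Snai2 were called in opposite directions in the 2 pairs. Of 13 on the array, 10 were detected in G1KO, with 3 called higher and 1 lower, against 2.4% and 4% of all genes. In G2KO 9 were detected and 3 were called lower, against 4.92% of all genes. Twist2 gave log2 ratios of 1.94 and 1.93 in G1KO and -2.44 and -2.54 in G2KO. Snai2 gave 1.31 and 1.14, then -1.39 and -1.61. Tcf4 was called higher in G1KO (1.04 and 1.01), Snai1 was called lower in G2KO (-1.44 and -1.36), and Grhl1, a factor of epithelium, was at least 2.24-fold lower in G1KO. Zeb1 (0.06 and 0.45), Zeb2 (0.49 and 0.47) and Tcf3 (0.38 and 0.12) were not called in either pair. All 11 chromatin factors known from the protocadherin cluster, including Ctcf, which loops its promoters, and Smchd1, which represses it, were detected and none was called. Ctcf gave 0.22 and 0.06 and Smchd1 0.63 and 0.51 in G1KO and G2KO.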

How the data were processed

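Total RNA of MEFs was amplified into Cy3- or Cy5-labelled cRNA and hybridised to 4 two-colour Agilent arrays. Spots were quantified by the authors in Agilent Feature Extraction (file headers, 10.5.1.1; submitters' processing notes, 9.1). The deposited scanner files hold linear intensity per spot, not background-subtracted, with flags and a log10 ratio (Cy5 over Cy3) from that software; the authors' deposited series table holds the same log10 ratio turned to knockout over WT. Single-array p-values in these files were not used.

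Intensities were corrected with normexp (offset 50) and normalised by loess within each array (limma 3.58.1, R 4.3.3), without control spots and 114 to 203 outlier spots per array. Log2 ratios were turned to knockout over WT, averaged over the spots of a probe and over both arrays. Levels were scaled between arrays by Aquantile. A probe was above background where more than a share of 0.5 of its spots carried the scanner's flag. A bound ("at least N-fold") set the brighter genotype against the higher of the dim probe's signal and the lowest signal above background on each array, and is open to dye bias only as far as the swap leaves it. With 1 replicate per genotype no test across cultures was made, and all arrays lay on 1 slide. The number of arrays limits the precision.

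The members and the lists of partner and marker genes were chosen with earlier results of these data known. Every called member is named with its values, as are genes detected in 1 pair only and called partner genes. The comparisons between WT cultures and across pairs were chosen after seeing the data. The steps were tested on simulated data. Symbols were updated through RefSeq (GRCm38.p6). Alternatives were the scanner ratio, the series table, other background, centring and filter settings, other thresholds, single arrays and the mean over probes.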

Additional observations from a re-analysis of the deposited data

Results flagged for a closer look

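In 13 of the 16 called members the G1KO and G2KO pairs lay on opposite sides of 0, each on both of its arrays. How often other called genes did so was not counted, and the difference between the pairs was not tested. The value given is the log2 ratio in G1KO minus that in G2KO. For 10 of the 13 members the ratio was higher in G1KO. Among the non-clustered protocadherins these were Pcdh17 (4.77), Pcdh20 (4.18) and Pcdh9 (3.69). The value of Pcdh20 is not exact, because G2KO was not above background on either array. Among the beta protocadherins they were Pcdhb21 (3.56), Pcdhb20 (3.20), Pcdhb22 (2.40), Pcdhb6 (2.20) and Pcdhb5 (1.82). Cdh11 (2.66) and Cdh13 (1.60) had the same sign. For 3 cadherins the ratio was higher in G2KO, namely Cdh26 (-2.20), Cdh20 (-2.45) and Cdh2 (-2.72).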

How the results depend on the processing

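The direction of every call on a named member was kept under all alternatives run, but the counts were not. With the scanner's log10 ratio or the series table, which hold the same values, 10 members were called in G1KO and 18 in G2KO, with medians of 0.89 and -0.96; all earlier calls stayed, and 10.6% and 13% of all genes were called. With a normexp offset of 0 the counts were 8 and 17 and the medians 0.59 and -0.80, with 8.98% and 10.8% of all genes called. Those settings stretch the ratios of dim probes, which the offset of 50 shrinks: Pcdhb14, Pcdhb16 and Pcdhga4 then became calls in G1KO, and Pcdh17, Pcdh20, Pcdh21, Pcdha9, Pcdhb18 and Pcdhb19 in G2KO. Median centring in place of loess left 3 calls in G1KO (median 0.30), and 3.22% of all genes. Requiring both genotypes above background left 26 genes and 3 calls in G1KO, with medians of 0.54 and -0.61. Under that requirement the share of all genes called was not counted. A 4-fold threshold left 2 and 5 calls (1.6% and 2.31% of all genes), and a 1.5-fold threshold gave 18 and 19 (14.6% and 16.6%). The medians were 0.23 and -0.36 without background correction, 0.04 and -0.01 over all 67 genes without a filter, and 0.27 and -0.46 when only arrays having the knockout in Cy5 were read. The mean over detected probes moved the G2KO median to -0.35 and lowered Cdh2 to 0.91, which ended its call. In other settings the counts stayed within 1.5 times, and the cause of the shifts was not tested. No paired analysis was possible because each genotype had 1 replicate. Signal over background limits Cdh26, Pcdh10, Pcdh20, Pcdh21 and Pcdhb7.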
